A study of Mus musculus with 6 samples.

Results

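Genes of the proteasome were examined in sorted basal cells of the mouse olfactory epithelium, either left intact or destroyed by a toxic gas. The members were all table entries whose symbol begins with Psma to Psmg, is followed by any digits and does not join several genes. There were 40 such entries among the 8078 genes listed: 7 alpha and 9 beta subunits of the catalytic core, 6 ATPases and 11 other genes of the regulatory cap, 3 activators and 3 assembly chaperones. The last entry, Psmc3ip, matches by its symbol but encodes a recombination factor named for binding an ATPase subunit. It was therefore kept apart from the groups. One further entry joins Psmb5 with the microRNA gene Mir686 and fell outside the rule.

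The proteasome is the barrel-shaped protease that degrades proteins marked with ubiquitin. Its core stacks rings of alpha subunits, which form the gate, around rings of beta subunits, of which Psmb5, Psmb6 and Psmb7 carry the active sites. Caps made of an ATPase ring (Psmc) and of receptor, scaffold and deubiquitinating subunits (Psmd) recognise, unfold and feed in the substrates. Activators (Psme) open the gate without ubiquitin. In cells exposed to interferon, Psmb8, Psmb9 and Psmb10 can replace the standard active sites and form the immunoproteasome, which favours peptides for antigen presentation. When the protease is short, cells are known to raise the genes of its subunits together through the transcription factor Nfe2l1.

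All 6 libraries came from 12-week-old mice, all B6;KRT5-CreER;Ai9 fl(Stop)TdTomato. Tamoxifen, given 2 weeks before the sort, let Cre under the keratin 5 promoter switch on the red protein TdTomato. Cells using that promoter around the time of tamoxifen could thus be sorted with their descendants. For 3 libraries the epithelium was left intact. For the other 3, called injured, the mice breathed methyl bromide at 180 ppm for 8 h and were taken 18 h later. Below, before and after injury stand for uninjured and injured libraries, not for the same cells followed over time. The sort was meant for horizontal basal cells, the reserve stem cells of this tissue. Each library pooled cells of several animals. The values are taken to be FPKM, a read density per length of transcript, which allows levels of different genes to be set side by side. Read depth was unknown.

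Of 11 markers of horizontal basal cells, 8 had an entry, with sums of 525 to 1302 FPKM in uninjured and 357 to 715 FPKM in injured libraries. The highest of these sums came from Perp, at 869 FPKM in uninjured replicate 2 beside 141 and 166 FPKM in the other uninjured libraries, and without that library the highest uninjured sum was 642 FPKM. The basal cell factor Trp63 was present in every library, at 157 to 194 FPKM in uninjured and 99.5 to 140.4 FPKM in injured libraries. Of the 8 markers, 5 had a negative change and 3 a positive one, beside 62.9% of all genes with a positive change. The positive ones were Itga6 (0.79), Itgb4 (0.34) and Icam1 (0.32), all with overlap. Krt5 and Sfn were not analysed here, and Krt14 shares its entry with other keratins. Markers of other cells were present too. Of 7 neuronal markers, 5 had an entry, and their sum was 412 to 727 FPKM without injury, then 140.3, 433 and 119.7 FPKM in injured replicates 1 to 3. The 5 sustentacular cell markers summed to 235 to 254 and 133 to 165 FPKM, the 3 stromal markers to 126 to 220.01 and 32.8 to 101 FPKM, and the 5 ciliated cell markers to 37.1 to 87.5 and 21.2 to 45.8 FPKM. Among the stromal markers only Dcn was lower, at 116 to 162 and 15.3 to 62.5 FPKM. The other 2, Col1a1 and Col1a2, had positive changes of 0.33 and 0.39, with overlap. The gland gene Plunc, the only gland marker with an entry, lay at 3023 to 4978 and 1182 to 2290 FPKM. In bulk RNA, fewer cells of a type and less RNA per cell cannot be told apart. The RNA that silences an X chromosome, Xist, was at 27.0 to 33.8 FPKM in uninjured and 0.0645 to 0.561 FPKM in injured libraries, so the sex of the pools and the injury cannot be told apart. The Y-linked gene Eif2s3y was at 18.8, 2.73 and 2.55 FPKM in uninjured replicates 1 to 3, so the first of these was near the 21.1 to 29.3 FPKM of the injured libraries. The part of these cells or of sex in the proteasome values below was not tested.

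Most proteasome genes stood higher 18 h after the exposure, by modest amounts and mainly in replicates 1 and 3. The change, taken as the injured mean minus the uninjured mean of log2(FPKM + 1), was positive for 37 of 40 members, where 62.9% of the 7987 genes tested had a positive change. The 3 exceptions were Psmb8, Psmb9 and Psme2, all of them interferon-inducible, as are Psmb10 and Psme1, which were positive. The median change was 0.57 for the members and 0.16 for all genes tested. The deubiquitinase Psmd14 changed most in this direction, with a ratio of mean FPKM of 2.34. Folds on the log2(FPKM + 1) scale understate the change of low genes.

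No single member passed the test over 6 libraries. With limma across 7987 genes and a Benjamini-Hochberg adjusted p of 0.05, 0 of 40 members were called higher, beside 0.00% of all genes, and 0 were called lower, beside 0.0125% of all genes. The lowest adjusted p among the members was 0.183 by limma. At an unadjusted p of 0.05, 12 members were higher and 0 lower (30.0% of them), beside 7.15% of all genes higher and 4.04% lower. Limma with library quality weights called 1 member higher, Psmd14, beside 1.06% of all genes, and 0 were called once trend and robust variance steps were dropped.

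The injured libraries all lay above the uninjured ones for 11 members, which is 27.5% of them, beside 12.0% of all genes tested. These were Psma1, Psma2, Psma6, Psmb3, Psmb7, Psmc6, Psmd1, Psmd2, Psmd8, Psmd12 and Psmd14. Psme2 alone lay below in all 3, beside 6.75% of all genes. Taken library by library, 33 members were above every uninjured library in injured replicate 1, 14 in replicate 2 and 31 in replicate 3. The corresponding shares of all genes were 42.8%, 33.9% and 44.7%, so the members' share was near the background in replicate 2 (14 of 40) and above it in replicates 1 and 3.

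The number of members called depended on injured replicate 2, and on no other single library. Without it, 5 members passed at an adjusted p of 0.05 with limma (12.5% of them, beside 3.52% of all genes): Psma2, Psmc6, Psmd1, Psmd2 and Psmd14. No member was then called lower, beside 1.17% of all genes. The members' median became 0.84 beside 0.18 for all genes, and 29 members no longer overlapped (72.5%, beside 29.7%). This was the injured library with the highest sum of neuronal markers. These markers differed there: Gap43 and Cnga2 were above every uninjured library, Adcy3 and Stoml3 below, and Gng13 within their range. It also had the lowest sum of basal cell markers, 357 FPKM, beside 593 and 715 FPKM in injured replicates 1 and 3. Its library quality weight, 0.259, was the lowest as well. The part of these traits in the result was not tested.

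Summed over the 39 genes without Psmc3ip, proteasome FPKM came to 899, 1165 and 1090.4 in uninjured replicates 1 to 3. The sums were 1861, 1114 and 1973 in injured replicates 1 to 3. Injured replicate 2 thus lay within the uninjured range and the other injured libraries above it. The total over all genes was also lowest in injured replicate 2, at 164265 FPKM. The entry Mir703 held 25.4%, 22.0% and 25.3% of the total in uninjured and 8.01%, 11.6% and 18.6% in injured replicates 1 to 3. As a share of all FPKM other than that of the dominant entry Mir703, the sums were 0.639%, 0.718% and 0.677% in uninjured and 0.990%, 0.767% and 1.05% in injured libraries. On that scale all 3 injured libraries were above all uninjured ones.

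**Figure D1:**
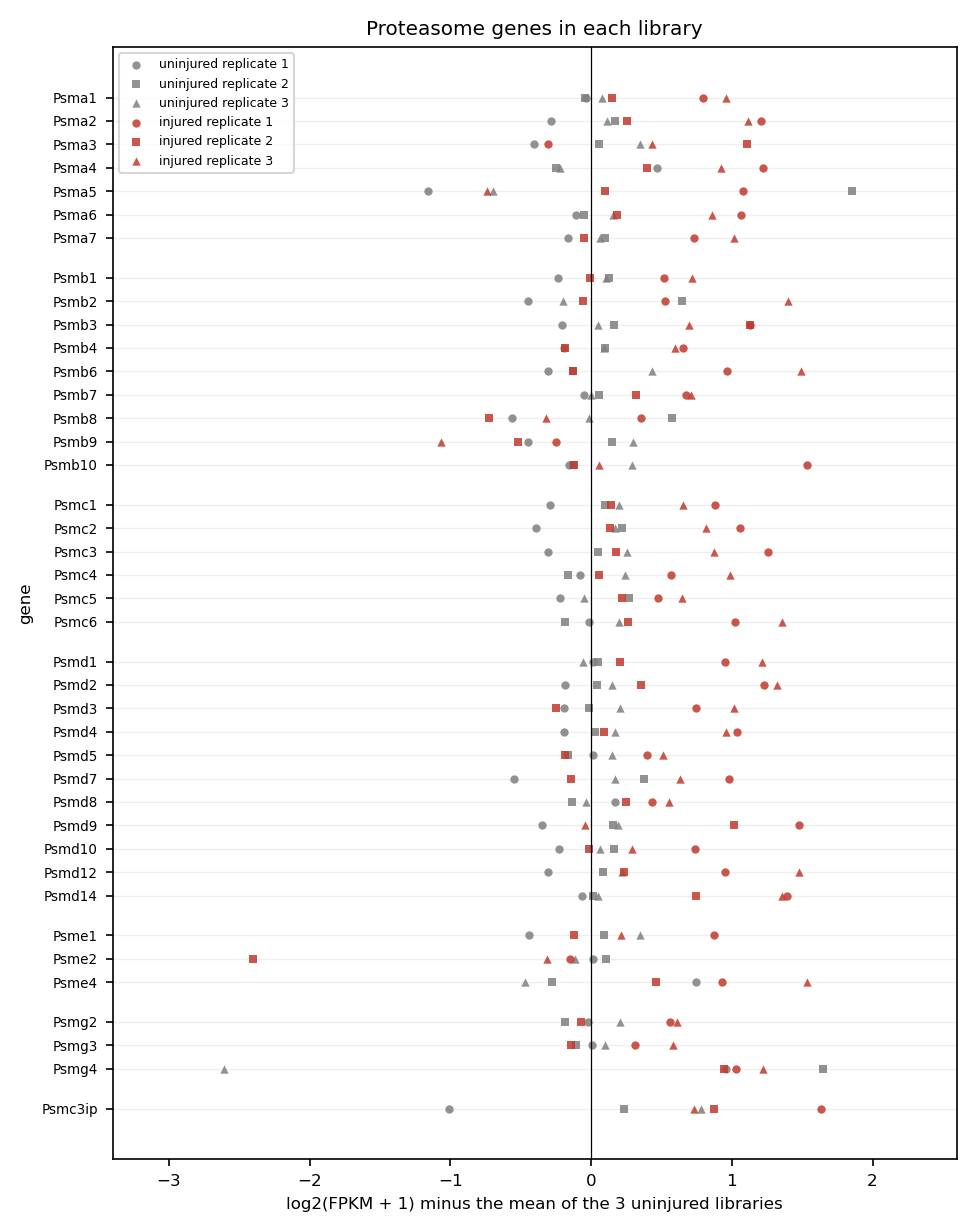
Level of each of the 40 members in each of the 6 libraries, as log2(FPKM + 1) minus the mean of the 3 uninjured libraries, with genes grouped by role from top to bottom. Red circles and triangles (injured replicates 1 and 3) lie to the right for most genes, whereas red squares (injured replicate 2) lie closer to the grey uninjured symbols, and Psmb9 and Psme2 run the other way.

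The alpha subunits, which build the outer rings and the gate of the core, had a median change of 0.64, with all 7 positive and 3 of 7 without overlap, beside 62.9% and 12.0% of all genes. Psma7, the most abundant, was at 80.5, 96.7 and 94.7 FPKM before and at 151, 87.2 and 183 FPKM after injury. Its groups overlapped through replicate 2, and the change of 0.57 (SE 0.35) did not pass (limma adjusted p = 0.559). Psma2 was at 40.2, 55.7 and 53.5 FPKM before and at 115, 59.01 and 108 FPKM after injury. Every injured library was above every uninjured one, replicate 2 only slightly, and the change of 0.86 (SE 0.33) was the largest among the alpha subunits.

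Psma4 was at 23.5, 13.9 and 14.2 FPKM in uninjured and at 40.3, 22.3 and 32.5 FPKM in injured libraries, with overlap between uninjured replicate 1 and injured replicate 2. Psma6 lay at 57.6 to 69.3 FPKM before and at 70.6 to 131 FPKM after injury, and Psma1 at 34.5 to 37.5 and 39.6 to 69.9 FPKM. Both were above every uninjured library in all 3 injured ones. Psma3 was the lowest alpha subunit, at 3.71 to 6.96 and 4.06 to 12.4 FPKM, and its highest value was in injured replicate 2, unlike its relatives.

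Psma5 depended on single libraries. It was at 6.38, 58.7 and 9.16 FPKM in uninjured and at 33.8, 16.7 and 8.88 FPKM in injured libraries. The high value of uninjured replicate 2 put the mean FPKM lower after injury (ratio 0.799), whereas on the log2 scale the change was 0.15, or -0.027 with upper-quartile scaling. RefSeq names near copies, mostly pseudogenes, of Psma5, Psmb5, Psmb6, Psmb7 and Psme2, and it is not known how reads matching both were shared out. Values of these genes are uncertain for that reason.

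Standard beta subunits, which form the inner rings, were likewise positive in each of the 6 with an entry of their own. Psmb3, a structural subunit, was at 7.61, 10.1 and 9.27 FPKM in uninjured and at 20.7, 20.8 and 15.1 FPKM in injured libraries. Here replicate 2 was as high as replicate 1, the groups were well apart at 9.003 ± 1.28 and 18.9 ± 3.24 FPKM (SD, n = 3), and the change was 0.98 (SE 0.26, 95% interval 0.41 to 1.56, limma adjusted p = 0.229). Psmb2, the most abundant beta subunit, was at 62.4, 135 and 74.5 FPKM before and at 123, 82.3 and 227 FPKM after injury, with overlap. Psmb1 lay at 29.9 to 38.6 and 35.1 to 58.5 FPKM and Psmb4 at 58.8 to 71.95 and 59.1 to 106 FPKM, with overlap in both.

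Of the active-site subunits, the standard Psmb6 and Psmb7 and the immune Psmb10 had a positive change and the immune Psmb8 and Psmb9 a negative one, none past the threshold. Psmb6, which cleaves after acidic residues, was at 34.3, 39.1 and 58.1 FPKM in uninjured and at 84.5, 39.1 and 122 FPKM in injured replicates 1 to 3, a change of 0.78 (SE 0.42, limma adjusted p = 0.518). Replicates 1 and 3 were above all uninjured libraries and replicate 2 was not. Psmb7, the trypsin-like subunit, was at 48.2, 52.01 and 50.1 FPKM before and at 80.5, 62.7 and 82.7 FPKM after injury. Its uninjured libraries lay close together and all injured ones above them, with a change of 0.57 (SE 0.27, limma adjusted p = 0.467). The joined entry of Psmb5 and Mir686, which cannot be read as Psmb5 alone, was at 24.5, 27.97 and 35.6 and at 57.1, 34.6 and 65.3 FPKM.

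The immune counterparts were less abundant. Psmb9, which takes the place of Psmb6, was at 10.03, 15.7 and 17.5 FPKM in uninjured and at 11.7, 9.51 and 6.17 FPKM in injured libraries. The means were 14.4 ± 3.88 and 9.12 ± 2.77 FPKM (SD, n = 3), with injured replicate 1 inside the uninjured range. The change of -0.61 (SE 0.31, 95% interval -1.30 to 0.08) did not pass (limma adjusted p = 0.492). It stayed negative with each library left out in turn, between -0.83 and -0.38. Psmb8, the counterpart of Psmb5, was at 1.80, 5.14 and 3.09 FPKM before and at 4.27, 1.49 and 2.30 FPKM after injury, so the groups fully overlapped and its change was -0.23 (SE 0.47). Psmb10, the counterpart of Psmb7, was at 3.94, 4.05 and 5.74 FPKM and at 15.00, 4.08 and 4.73 FPKM. Its change of 0.49 (SE 0.44) came from injured replicate 1, and without that library it was -0.032.

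The ratio of Psmb9 to Psmb6 was 0.292, 0.401 and 0.301 before and 0.138, 0.243 and 0.0505 after injury. All injured libraries were thus below all uninjured ones, replicate 2 included, by 1.46 on the log2 scale. An exact two-sided permutation test over the 6 libraries gave p = 0.1, the smallest value that 3 against 3 allows, and 0.2 after adjustment over the 2 ratios examined. For Psmb10 over Psmb7 the ratio was 0.0816, 0.0778 and 0.115 before and 0.186, 0.0651 and 0.0571 after injury (exact permutation p = 1). Injured replicate 1 was above every uninjured library, and injured replicates 2 and 3 were below every one.

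**Figure D2:**
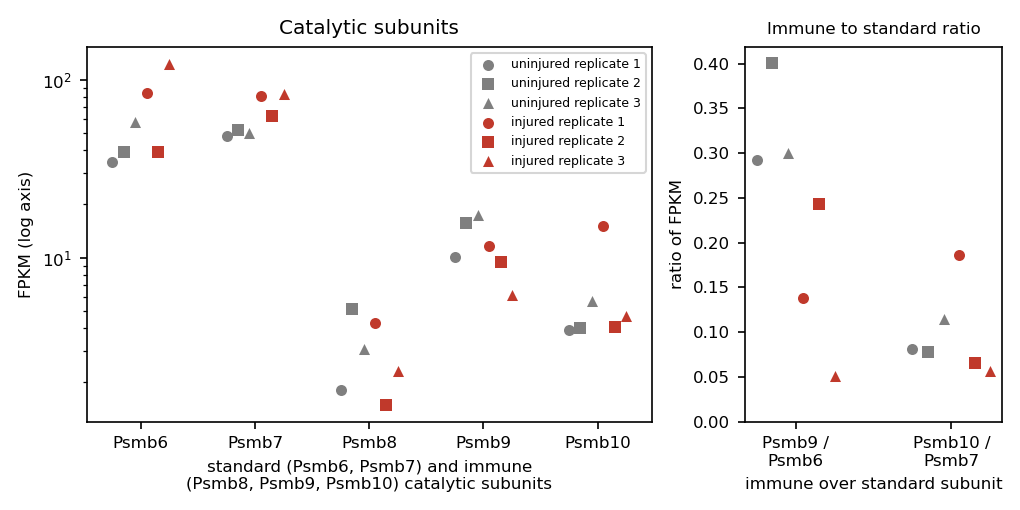
Left, FPKM on a log axis of the standard (Psmb6, Psmb7) and immune (Psmb8, Psmb9, Psmb10) active-site subunits in each library. Right, the FPKM ratio of an immune to a standard subunit, where the 3 injured values of Psmb9 over Psmb6 (0.0505 to 0.243) lie below the 3 uninjured ones (0.292 to 0.401) and those of Psmb10 over Psmb7 overlap.

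Immune cells express the immune subunits strongly, and some of their markers moved as well. Of 17 immune cell markers, 11 had an entry, and none passed the threshold. Their change was positive for 4, beside 62.9% of all genes, and negative for 7. Their sum was 131 to 283 FPKM in uninjured and 95.04 to 175 FPKM in injured libraries. Cd74 and the MHC class II genes H2-Aa, H2-Ab1 and H2-Eb1, with Laptm5, lay below every uninjured library in all 3 injured ones, which is 5 of 11 markers, beside 6.75% of all genes. The neutrophil genes S100a8 and S100a9 had positive changes of 0.71 and 0.80 and Fcer1g one of 0.21, all with overlap. Cd74 was at 67.95 to 162 FPKM before and 39.8 to 54.7 FPKM after injury. The leukocyte gene Ptprc was at 1.06, 0.8 and 3.52 FPKM in uninjured libraries and at 17.9, 0.343 and 1.16 FPKM in injured ones, highest in the same library as Psmb10. Cd52 was listed at 0.001, the minimum of the table, in injured replicate 1. The part of immune cells in the levels of Psmb8, Psmb9, Psmb10 and Psme2 was not tested.

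The cap ATPases form the ring of motors that unfolds substrates. None passed the threshold. Their changes ran from 0.45 for Psmc5 to 0.88 for Psmc6, with a median of 0.61. In injured replicates 1 and 3 all 6 were above every uninjured library, beside 42.8% and 44.7% of all genes. In replicate 2 only 1 of 6 was, beside 33.9% of all genes. That was Psmc6, at 28.01, 24.7 and 32.5 FPKM in uninjured and at 58.3, 34.1 and 73.8 FPKM in injured libraries (change 0.88, SE 0.32, limma adjusted p = 0.376, and 0.0415 without injured replicate 2). Psmc5, the most abundant ATPase, was at 36.3, 51.4 and 41.1 FPKM before and at 59.4, 49.8 and 67.2 FPKM after injury. Psmc3 was at 10.7, 14.04 and 16.3 and at 33.7, 15.4 and 25.5 FPKM, with replicate 2 inside the uninjured range. Psmc1, Psmc2 and Psmc4 lay between 13.2 and 26.1 FPKM in uninjured and between 18.2 and 44.3 FPKM in injured libraries.

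The cap genes without ATPase activity had a median change of 0.69 over 11 genes, from 0.24 for Psmd5 to 1.16 for Psmd14, with 5 of 11 without overlap beside 12.0% of all genes. Psmd14, the deubiquitinase that cuts the ubiquitin chain off a substrate as it enters, was at 24.4, 25.9 and 26.4 FPKM in uninjured libraries. It was at 68.8, 43.4 and 66.8 FPKM in injured replicates 1 to 3. The uninjured libraries lay close together (25.6 ± 1.05 FPKM, SD, n = 3) and every injured one was higher (59.7 ± 14.1 FPKM), replicate 2 included. Its change was 1.16 (SE 0.28, 95% interval 0.55 to 1.78), with a limma adjusted p of 0.183, and of 0.0202 without injured replicate 2.

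The scaffolds that hold ubiquitin receptors and shuttles to the cap, Psmd1 and Psmd2, shifted in the same direction. Psmd1 was at 26.01, 26.7 and 24.7 FPKM in uninjured and at 50.7, 29.9 and 61.2 FPKM in injured libraries, without overlap. Psmd2 was at 8.47, 10.1 and 10.9 FPKM and at 24.2, 12.8 and 25.8 FPKM, also without overlap. Their changes were 0.79 (SE 0.31) and 0.97 (SE 0.31). Psmd12, a lid subunit and the most abundant of these genes, was at 22.9, 30.4 and 33.4 FPKM before and at 56.1, 33.8 and 81.4 FPKM after injury, where replicate 2 stood only just above the uninjured libraries.

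The remaining lid and receptor genes had smaller changes. The ubiquitin receptor Psmd4 was at 18.1 to 23.5 FPKM in uninjured and 22.2 to 43.6 FPKM in injured libraries, and Psmd8 at 19.8 to 24.6 and 25.99 to 32.4 FPKM, the latter without overlap. Psmd3 lay at 8.99 to 12.1 and 8.58 to 22.1 FPKM and Psmd7 at 17.7 to 34.5 and 23.8 to 52.9 FPKM, with injured replicate 2 within or below the uninjured range in both.

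Despite their symbols, Psmd5, Psmd9 and Psmd10 encode chaperones that help assemble the ATPase ring and then leave it. Psmd5 had the smallest change of the cap genes, at 9.96, 8.67 and 10.98 FPKM before and at 13.3, 8.54 and 14.4 FPKM after injury (0.24, SE 0.27). Psmd10, which lies on the X chromosome, was at 9.02 to 12.1 and 10.6 to 18.6 FPKM. Psmd9 was at 3.13, 4.85 and 5.01 and at 13.6, 9.61 and 4.11 FPKM, and differed from most members in that replicate 3 was its lowest injured library. The cap median was 0.67 with these chaperones and 0.68 without them.

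The activators did not move together. Psme4, a large single-chain activator, was at 22.3, 10.4 and 8.995 FPKM in uninjured and at 25.5, 18.1 and 39.1 FPKM in injured libraries (change 0.98, SE 0.39, limma adjusted p = 0.399), with injured replicate 2 below uninjured replicate 1. Psme1 and Psme2 encode the partner chains of the interferon-inducible ring activator PA28. Psme1 was at 46.8, 68.2 and 81.5 FPKM before and at 118, 58.6 and 74.1 FPKM after injury, with overlap and a change of 0.32 (SE 0.35). Psme2 was far less abundant, at 4.32, 4.68 and 3.88 FPKM and at 3.77, 0.001 and 3.26 FPKM. All 3 injured values were below all uninjured ones, yet the change of -0.95 (SE 0.59) rested largely on the lowest value of the table in injured replicate 2, and without it the change was -0.23. Psme3 and Psmf1 were not analysed here.

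None of the 3 assembly chaperones of the core passed the threshold. Psmg2, which with its partner Psmg1 holds the alpha ring, was at 8.26, 7.26 and 9.82 FPKM in uninjured and at 12.8, 7.93 and 13.3 FPKM in injured libraries. Psmg3 was at 4.96, 4.49 and 5.34 and at 6.36, 4.37 and 7.89 FPKM. Both had replicates 1 and 3 above the uninjured range and replicate 2 not, with changes of 0.37 (SE 0.28) and 0.25 (SE 0.30). Psmg4, the partner of Psmg3, was at 10.8, 18.2 and 0.001 FPKM and at 11.5, 10.7 and 13.2 FPKM. Its change of 1.07 (SE 1.14) came from the lowest table value in uninjured replicate 3, and without that library it was -0.24. Psmg1 was not analysed here.

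Psmc3ip, the entry that is no proteasome gene, was at 0.988, 3.70 and 5.86 FPKM in uninjured and at 11.4, 6.35 and 5.66 FPKM in injured libraries. Leaving it out changed the members' median by less than 0.01, to 0.57 over 39 genes.

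Core and cap were then compared. The median change was 0.57 over the 16 core genes and 0.67 over the 17 cap genes, 0.32 over the 3 activators and 0.37 over the 3 assembly chaperones, beside 0.16 over all genes tested. Within the core it was 0.62 for the 13 genes other than the immune subunits. The mean log2 level of the core exceeded that of the cap by 0.37, 0.62 and 0.38 in uninjured and by 0.28, 0.38 and 0.15 in injured replicates 1 to 3. These differences overlapped only through injured replicate 2, and without the immune subunits and the cap chaperones they were 0.60, 0.82 and 0.55 and 0.52, 0.73 and 0.45, again overlapping through injured replicate 2. The mean difference between core and cap was lower after injury by 0.19 for all genes (SD 0.14 and 0.12 among uninjured and injured libraries), and by 0.09 for the reduced sets (SD 0.14 in both), so it exceeded the spread only with the immune subunits and cap chaperones included. It was not tested further.

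**Figure D3:**
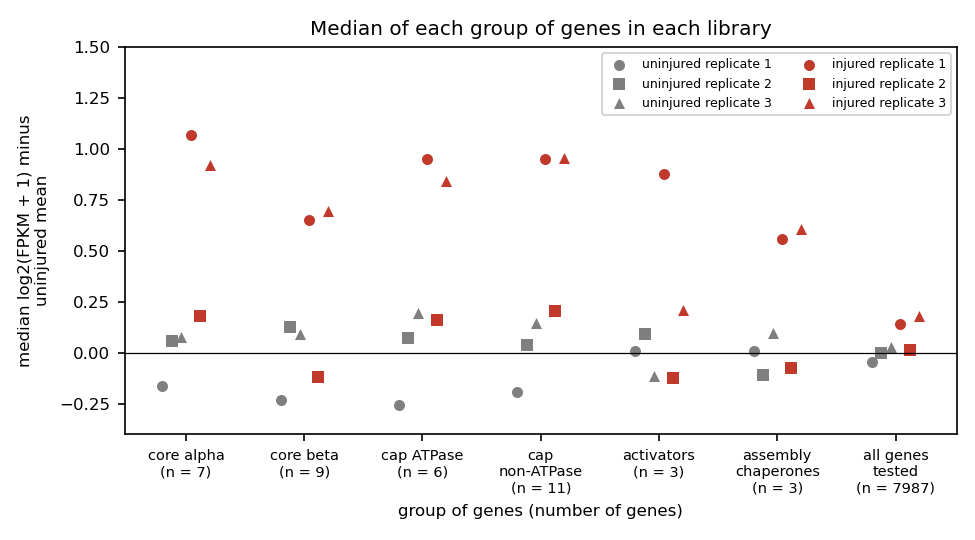
Median over the genes of each group of log2(FPKM + 1) minus the uninjured mean, in each of the 6 libraries, with all genes tested at the right. In injured replicates 1 and 3 the alpha, ATPase and non-ATPase medians lie at 0.84 to 1.07, whereas in injured replicate 2 they lie at 0.16 to 0.21 and all genes at 0.01; the beta medians are 0.65, -0.12 and 0.70 in injured replicates 1 to 3.

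**Figure D4:**
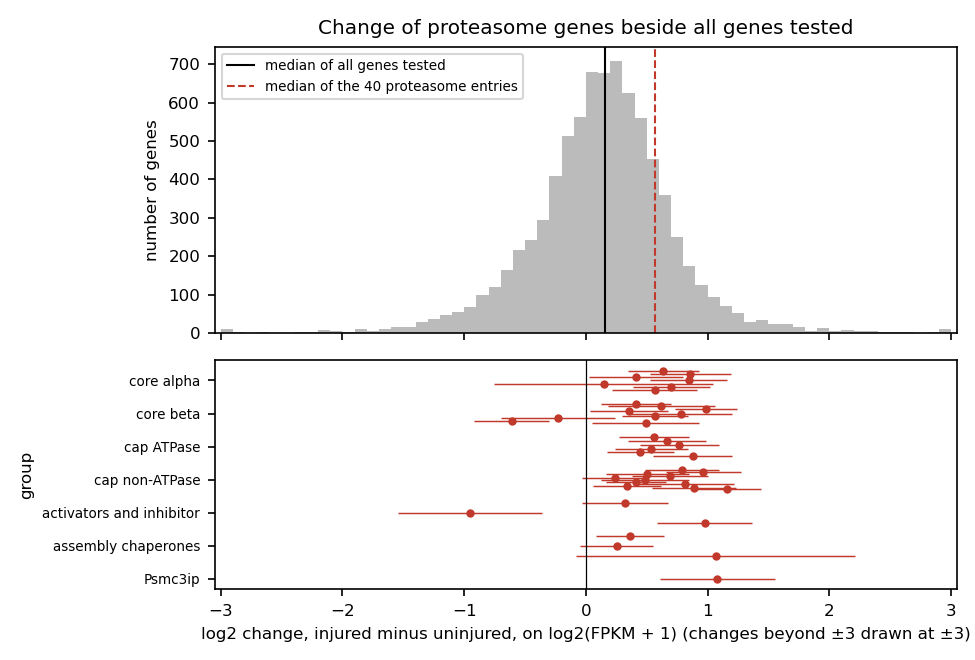
Top, histogram of the log2 change of all 7987 genes tested, with the median of all genes (0.16) and of the 40 members (0.57). Bottom, the change of each member with its standard error, by group. Most members lie right of the median of all genes, and Psmb8, Psmb9 and Psme2 lie left of zero.

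Promoters of the members were searched for elements that are known from proteasome and immunoproteasome genes. RefSeq sequences of the build GRCm38.p6 were matched for 33 of 40 members, and the 250 bases before each gene start were searched on both strands. The antioxidant response element core TGACNNNGC, to which Nfe2l1 and Nfe2l2 bind with small Maf proteins, was found in 4 of 33 members, 12.1%, beside 11.5% of 27025 genes. They were the active-site subunit Psmb6, the ATPase Psmc6, the lid subunit Psmd12 and the cap chaperone Psmd9. The windows of the last 3 follow with up to 25 bases on each side, written along the gene's strand with the element in capitals.

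Psmc6, chr14:45329574-45329630, plus strand: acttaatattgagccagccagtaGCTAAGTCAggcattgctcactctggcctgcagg

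Psmd12, chr11:107479278-107479314, plus strand: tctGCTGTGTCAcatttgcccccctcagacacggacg

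Psmd9, chr5:123228134-123228189, plus strand: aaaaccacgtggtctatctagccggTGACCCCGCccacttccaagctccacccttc

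In Psmc6 and Psmd12 the element is on the opposite strand. Of these genes only Psmc6 and Psmd12 had injured libraries that all lay above the uninjured ones. Psmd14, the member with the largest positive change, had no match to this element in its window.

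The CCAAT box, bound by the factor NF-Y, was found in 13 of 33 members, 39.4%, beside 37.5% of all genes. Of the members with the largest change among alpha, beta, ATPase and non-ATPase genes, Psma2, Psmb3 and Psmd14 held it and Psmc6 did not. The windows of Psmd14 and Psmb3, the 2 members of lowest p, are shown with the box in capitals. In Psmd14 it is read on the opposite strand as attgg. Psmb3 held the box at another position too.

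Psmd14, chr2:61711510-61711564, plus strand: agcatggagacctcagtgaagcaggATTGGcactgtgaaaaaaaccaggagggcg

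Psmb3, chr11:97703366-97703420, plus strand: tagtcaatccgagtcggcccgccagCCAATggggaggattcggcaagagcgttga

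Elements of interferon signalling were searched because of the immune subunits. The activated sequence TTCNNNGAA, bound by STAT dimers, was found in 1 of 33 members, 3.03%, beside 8.13% of all genes. That member was Psmb8, shown here with the element in capitals.

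Psmb8, chr17:34198073-34198131, plus strand: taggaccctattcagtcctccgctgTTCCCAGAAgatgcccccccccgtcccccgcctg

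The core of the interferon-stimulated response element, bound by interferon regulatory factors, was found in Psmb3, Psmd4 and Psmd9, 9.09% of the members beside 3.46% of all genes. No match of one element overlapped a match of another in the members' windows. A match is a run of letters and does not show binding.

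Genes that work beside the proteasome were read from the same fit. Of 14 associated factors, 13 had an entry and 12 were tested. Of these, 0 passed in either direction, 10 had a positive change, beside 62.9% of all genes, and the median was 0.28. Pomp, the chaperone that matures the core, was the most abundant, at 80.2, 128 and 144 FPKM in uninjured and at 196, 130 and 197 FPKM in injured libraries, with replicate 2 inside the uninjured range. Shfm1, a small cap subunit also called Sem1, was at 65.7, 145 and 67.99 FPKM and at 56.3, 81.95 and 64.9 FPKM.

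In the list of ubiquitin supply and shuttling, 15 of 17 genes were tested and 0 passed in either direction. The median change was 0.41, 13 of 15 were positive, beside 62.9% of all genes, and 8 of 15 lay above every uninjured library in all 3 injured ones, beside 12.0% of all genes, a count chosen for mention after it was seen. Those 8 were the ubiquitin-activating enzymes Uba1 and Uba6, the shuttles Rad23b and Ubqln4, Faf1, and the unfoldase Vcp with its cofactors Ufd1l and Nploc4. Without injured replicate 2 only Rad23b passed. The ubiquitin gene Ubb, the most abundant of the list, overlapped between the groups, at 258, 298 and 294 FPKM in uninjured and at 243, 339 and 286 FPKM in injured libraries.

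Of 8 genes for the transcription of subunit genes, 5 were tested and none passed. Their change was positive for 2, beside 62.9% of all genes, and negative for 3. The stress factor Nfe2l2 was at 84.7, 86.7 and 122 FPKM in uninjured and at 125, 65.4 and 120 FPKM in injured libraries, and Ngly1, the glycanase that activates Nfe2l1, at 17.6, 10.7 and 10.3 and at 10.9, 11.1 and 12.7 FPKM. Nfe2l1 was not analysed here. Of 10 antigen presentation and interferon genes, 5 were tested and none passed. All 5 had a negative change, where 62.9% of all genes had a positive one. Their median was -0.18, and it was 0.12 without injured replicate 2. B2m was at 290.3, 328 and 381 FPKM before and at 414, 182 and 267 FPKM after injury. The factor Irf1 was at 29.4, 18.9 and 21.2 and at 26.6, 9.09 and 32.3 FPKM. In both genes, injured libraries lay above as well as below the uninjured range.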

How the data were processed

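Libraries were made from polyA RNA with Nextera XT kits, per the labels, and the authors gave the 6 of them as columns of 1 gene table. The submitters' processing notes list FastQC, TopHat, Cuffdiff and mm9. Tool versions, annotation, library scaling and multiple-match handling: not given in the sources used here. No unit is stated by the table. Its deposited values were read as FPKM, the output of Cuffdiff, whose column name for genes it has. Depth is unknown: at most 2.96% of the ratios of low values between libraries agreed within 1%, so no steps of whole reads were found. The lowest value is 0.001.

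A mean of 1 FPKM or more was required, which kept 7987 of 8078 genes and all 40 members. These were fitted with limma 3.58.1 (R 4.3.3) on log2(FPKM + 1), 3 injured against 3 uninjured libraries, with eBayes using trend and robust steps and Benjamini-Hochberg adjustment over all genes. Values after ± are SDs, n = 3. The fit was tested on simulated data with the same spread per gene in every library. That simulation held no outlying library, so it does not cover the dependence on injured replicate 2. No set test was run. Members, lists and tests were chosen with earlier results of these data known. Genes named with each library's value were the active-site subunits, activators and chaperones, the most abundant, most and least changed of each core and cap group, and the 10 members of lowest p. A few others illustrate a group. From the lists beside the proteasome, the most abundant genes are named, except 1 that is not reported here. The alternatives were a replicate block, each library left out, other filters, scalings, pseudocounts and variance steps. Promoter windows came from RefSeq. Figures were drawn with matplotlib 3.10.9.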

Additional observations from a re-analysis of the deposited data

How the results depend on the processing

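The counts of genes and members, the medians and each member's change were recomputed under 16 alternatives. The ratios of immune to standard subunits, the core and cap differences and the summed FPKM were not, and the marker and other gene lists were recomputed only without injured replicate 2. The counts over all genes moved most. Higher and lower genes numbered 0 and 1 as reported, 134 and 87 with the replicate block, 85 and 49 with library quality weights, and 3 and 3 without the trend and robust steps. Lower genes numbered 3 after upper-quartile scaling, 4 after quantile normalization and 2 with a pseudocount of 0.1. With a library left out, higher genes ranged from 0 to 278 and lower genes from 1 to 92. Members called higher numbered 1 with quality weights and 0 to 5 with a library left out, and those without overlap 12 to 29. Rescaling without Mir703 gave 16 members without overlap, and upper-quartile scaling 10, beside 11 as reported. No member was called lower under any alternative. The members' median ranged from 0.38 to 0.84 and exceeded that of all genes by 0.35 to 0.66. Scaling moved the median of all genes from 0.16 to between -0.01 and 0.02. The change of Psma5 turned to -0.027, -0.0053 and -0.43 after upper-quartile scaling, quantile normalization and with quality weights. With a library left out, 4 members changed sign in at least 1 case: Psma5 between -0.43 and 1.08, Psmb8 between -0.52 and 0.055, Psmb10 between -0.032 and 0.80, and Psmg4 between -0.24 and 1.89. The cause of these moves was not tested. Correlations between libraries gave no sign that the replicate numbers pair them, which does not show that the libraries are unpaired. Deviations of same-numbered libraries correlated at -0.09, 0.07 and -0.08, and not every library correlated best with its own number. The replicate block did call more genes, 134 and 87 beside 0 and 1, and why was not tested. It called 0 members, with a lowest adjusted p of 0.0727 by limma. With depth unknown, no counting error could be given for low genes such as Psmb8 and Psme2.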
